A study of Mus musculus with 6 samples.

Results

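The 10 genes described here encode receptors of the Notch pathway (*Notch1*, *Notch2*, *Notch3*), their ligands (*Jag1*, *Jag2*, *Dll1*), an enzyme that modifies the receptors (*Lfng*) and target genes (*Hes1*, *Hey1*, *Nrarp*). They were taken by gene symbol, and all 10 were among the 17784 genes of the expression table. Bulk RNA-seq had been performed on corneal epithelial cells of 3 samples from Prrx1-creERT;Ptch1 mice, titled KO and called Ptch1-ablated here, and of 3 samples from control mice, titled WT and given only as ctrl in the labels. Mice of both groups were 10 weeks old, and both received 3 doses of tamoxifen (the labels add 2 months, without saying from which point), after which their epithelium was lifted from the cornea with EDTA. *Prrx1-CreERT* is a tamoxifen-inducible recombinase knocked into the *Prrx1* locus. It acts in keratocytes, corneal endothelial cells and other mesenchymal cells of the eye, so the deletion of the floxed *Ptch1* gene was aimed at cells beneath the epithelium and not at the cells that were sequenced. The methods call the samples biological replicates, and neither they nor the labels say how many animals made up a sample. The p values therefore describe the spread between these samples.

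Notch signalling passes between cells that touch. A Jagged or Delta-like ligand on the surface of a cell binds a Notch receptor on its neighbour, the receptor is cut, and its intracellular domain enters the nucleus and joins the DNA-binding protein RBPJ to switch on target genes. The Hes and Hey genes encode transcriptional repressors, and *Nrarp* encodes a small feedback inhibitor of the pathway. In stratified epithelia, Notch signalling is known for its part in the exit from the basal layer and in differentiation. In the cornea it is also known for keeping the epithelium from taking on an epidermal character after injury.

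The expected counts summed to between 20296741 and 20625813 per sample, and 3 counts corresponded to 0.145 to 0.148 CPM (counts scaled to the sample total), a floor per sample that covers counting error only. Of the 17784 genes, 12999 passed the filter on low counts and entered edgeR's quasi-likelihood fit. By the adjusted p (Benjamini-Hochberg over these genes, threshold 0.05) alone, 1822 genes passed, 989 higher and 833 lower in the Ptch1-ablated samples (789 higher and 1008 lower without scaling factors). Ptch1-ablated replicate 1 stood apart on the first principal component, at 51.7 against 18.3 and 19.1 in replicates 2 and 3 and -33.7 to -26.5 in the control samples. The 10 corneal epithelial markers summed to between 93838 and 111678 TPM, and *Kera*, a keratocyte gene, had at most 0.07 TPM. *Ptch1* was 0.51 lower on the log2 scale in the Ptch1-ablated epithelium (standard error 0.13, adjusted p = 0.0401 from edgeR), and this call was lost without control replicate 2 or 3 or any single Ptch1-ablated replicate (adjusted p 0.0564 to 0.143) and with limma on log2 TPM in all 3 versions (0.0781 to 0.133).

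Of the Notch genes, *Hes1* was lower in Ptch1-ablated epithelial cells, where it fell by 44.5%, and was the only one of the 9 tested genes to pass the adjusted p of 0.05. *Notch3* and *Nrarp* had lower means and *Notch1* and *Notch2* higher means in the Ptch1-ablated samples, without passing. *Jag1*, *Jag2*, *Dll1* and *Lfng* overlapped between the groups, and *Hey1* did not pass the filter on low counts. No Notch gene reached the fold change of 2 that the study required beside the adjusted p, a rule that called 420 genes or 3.23% of those tested (2.34% higher and 0.892% lower).

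Levels were first compared between genes on the TPM scale, which corrects for transcript length. In control samples *Hes1* was the highest of the 10, at 292 ± 49.0 TPM (SD, n = 3), above 97.6% of the genes listed. *Notch3* followed at 149 ± 8.0 TPM, then *Nrarp* at 109 ± 4.32, *Jag2* at 88.4 ± 11.2 and *Jag1* at 72.5 ± 5.73. The ranges of these neighbours did not overlap in the control samples. *Notch1* (41.0 ± 1.12 TPM), *Dll1* (39.9 ± 10.4), *Notch2* (28.1 ± 2.28) and *Lfng* (25.0 ± 3.53) came next, and in this part of the order the range of each gene overlapped that of the following one. *Hey1* came last, at 0.143 ± 0.0950 TPM. The order of the means was the same in the Ptch1-ablated samples. There, the ranges of *Notch3* and *Nrarp*, of *Nrarp* and *Jag2*, of *Jag2* and *Jag1*, and of *Dll1* and *Notch2* overlapped, whereas *Hes1* at 159 ± 26.4 TPM remained above the range of *Notch3* at 110 ± 21.9 TPM.

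**Figure D1:**
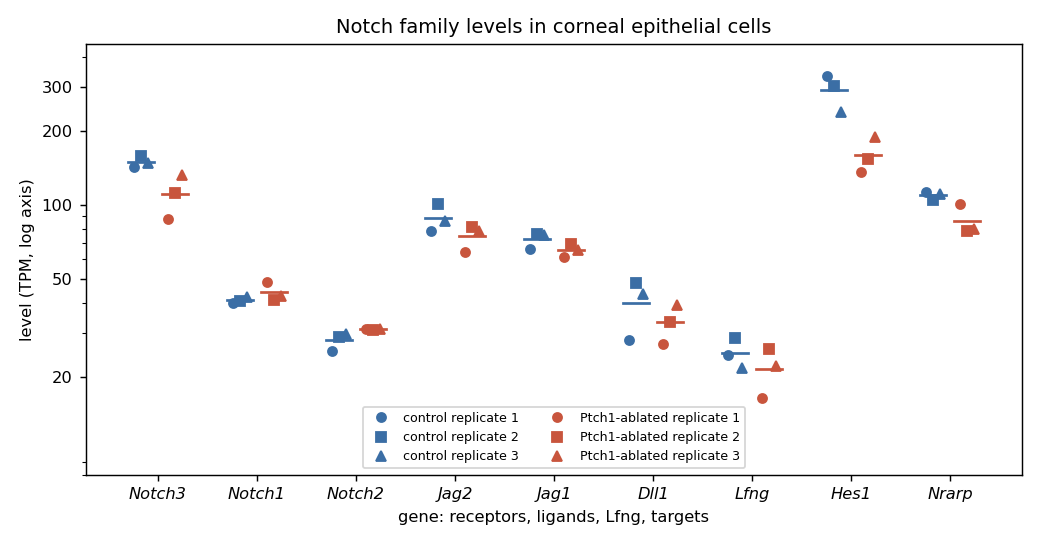
Level of each Notch gene in TPM on a log axis, with a point per sample (control blue, Ptch1-ablated red, replicates by symbol) and a bar at each group mean (n = 3). *Hes1* lies between 238 and 334 TPM in control samples and between 136 and 188 TPM in Ptch1-ablated samples. *Hey1*, at 0.24 TPM or less, is not drawn.

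*Hes1* (gene 15205), which encodes a repressor of the basic helix-loop-helix family and is the best known Notch target, was examined in each sample. On the scale of normalised counts, control replicates 1, 2 and 3 had 4524, 3983 and 3055, and Ptch1-ablated replicates 1, 2 and 3 had 1924, 2074 and 2414. All Ptch1-ablated samples were below all control samples, and the lowest control sample was replicate 3. The log2 fold change was -0.85 (standard error 0.15, 95% interval -1.20 to -0.50, adjusted p = 0.0170 from edgeR), a level 1.80-fold lower in the Ptch1-ablated group. Only 324 of the 12999 tested genes had a lower log2 fold change. Without Ptch1-ablated replicate 1 the value was -0.78 (adjusted p = 0.0317 from edgeR). Without control replicate 2 it was -0.83 and the adjusted p rose to 0.0803, in a fit in which 93 genes in all passed.

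*Nrarp* (gene 67122) had 2790.25, 2479 and 2576 normalised counts in control replicates 1, 2 and 3, and 2591, 1923 and 1878 in the Ptch1-ablated replicates. Ptch1-ablated replicates 2 and 3 lay below every control sample, while replicate 1 lay within the control range. For *Nrarp* the log2 fold change was -0.30 (standard error 0.13, 95% interval -0.59 to 0.0018, adjusted p = 0.151 from edgeR). Without Ptch1-ablated replicate 1 it was -0.46 with an adjusted p of 0.0146 from edgeR, so the outcome for *Nrarp* rested on that sample. *Hey1* (gene 15213), a repressor related to the Hes proteins, had 3, 1 and 5 counts in the control samples and 0, 0 and 1 in the Ptch1-ablated samples. It did not pass the filter for testing. The ratio of its summed counts, Ptch1-ablated to control, was 0.115 (exact binomial 95% interval 0.0026 to 0.831, counting error only). When every gene with a count was tested, the unadjusted p of *Hey1* in edgeR was 0.0475 and the adjusted p 0.183.

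*Notch3* (gene 18131) had 11069.6, 11811 and 10893 normalised counts in control replicates 1, 2 and 3, and 7146, 8686 and 9750.4 in the Ptch1-ablated replicates. Every Ptch1-ablated sample was below every control sample, and replicate 1 was the lowest. The log2 fold change of -0.40 (standard error 0.11, 95% interval -0.67 to -0.13) had an adjusted p of 0.0556 in edgeR, above the threshold. It passed with DESeq2 (adjusted p = 0.00787) and, in edgeR, without Ptch1-ablated replicate 3 (-0.51, adjusted p = 0.0361). Without Ptch1-ablated replicate 1 it was -0.29 (adjusted p = 0.0656 from edgeR). In the remaining fits without 1 sample it was -0.43 to -0.37, with adjusted p of 0.105 to 0.182 from edgeR.

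*Notch2* (gene 18129) had 2600.46, 2849 and 2865 normalised counts in the control samples and 3329, 3131 and 3039 in the Ptch1-ablated samples. The groups did not overlap, and the lowest value was that of control replicate 1. The difference for *Notch2* was 0.19 on the log2 scale (95% interval 0.03 to 0.35, adjusted p = 0.0971 from edgeR). *Notch1* (gene 18128), the receptor most studied in skin and cornea, had 3688, 3594 and 3676 normalised counts in control samples and 4672, 3767 and 3718 in Ptch1-ablated samples. Replicate 1 of the Ptch1-ablated group stood above the other 5 samples, which lay close together. The log2 fold change of *Notch1* was 0.15 (95% interval -0.07 to 0.37, adjusted p = 0.311 from edgeR), and 0.04 without that replicate.

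The make-up of the receptor pool was also described within each sample, as the share of each gene in the summed TPM of *Notch1* to *Notch4*. *Notch3* supplied 68.4%, 69.3% and 67.2% in control replicates 1, 2 and 3, and 52.3%, 60.8% and 64.0% in the Ptch1-ablated replicates. The shares of *Notch1* were 19.3%, 17.9% and 19.2% in control samples and 29.0%, 22.4% and 20.7% in Ptch1-ablated samples. For *Notch2* they were 12.3%, 12.8% and 13.5% against 18.6%, 16.8% and 15.3%. None of these shares overlapped between the groups, and Ptch1-ablated replicate 1 was the farthest from the control samples for each of them. The shares are parts of the same sum, so a lower share of *Notch3* raises the others, and they are not separate results. The ratio of *Notch3* to *Notch1* TPM was 3.64 ± 0.208 (SD, n = 3) in control samples and 2.54 ± 0.663 in Ptch1-ablated samples. That of *Notch1* to *Notch2* overlapped between the groups, at 1.46 ± 0.0942 and 1.41 ± 0.122. No p value is given for shares and ratios, since an exact test of 3 samples against 3 cannot go below 0.10. *Notch4*, the receptor best known from blood vessels, had between 4 and 10 counts per sample and was not tested.

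**Figure D2:**
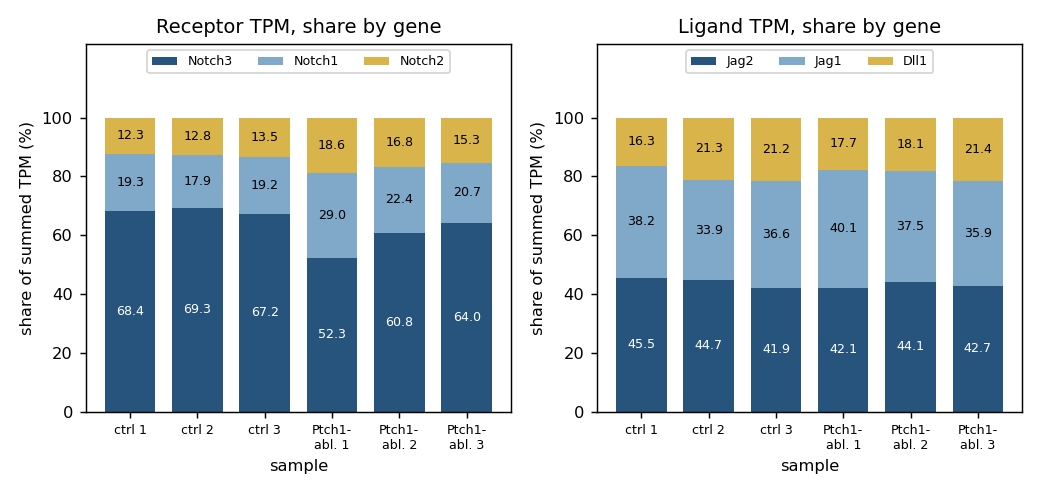
Share of each gene in the summed TPM of the receptors (left) and of the ligands (right), in percent, with a stacked bar per sample. The *Notch3* share lies between 67.2% and 69.3% in control samples and between 52.3% and 64.0% in Ptch1-ablated samples, whereas the ligand shares overlap between the groups.

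None of the ligands passed the test, at either the adjusted or the unadjusted p of 0.05 in edgeR. *Jag2* (gene 16450) had 3589, 4426 and 3664 normalised counts in control samples and 3051, 3672 and 3295 in Ptch1-ablated samples. The group ranges overlapped, with Ptch1-ablated replicate 2 above control replicates 1 and 3. The log2 fold change was -0.22 (95% interval -0.47 to 0.02, adjusted p = 0.186 from edgeR). *Jag1* (gene 16449) had 3537.50, 3903 and 3823 normalised counts against 3435, 3688 and 3343, also with overlap. Its log2 fold change of -0.11 had a 95% interval from -0.27 to 0.06 (adjusted p = 0.322 from edgeR).

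*Dll1* (gene 13388), a Delta-like ligand, had 961, 1567 and 1418 normalised counts in control samples and 974, 1138 and 1272 in Ptch1-ablated samples. The lowest and the highest of the 6 values were both from control samples. The log2 fold change was -0.22 (95% interval -0.65 to 0.20, adjusted p = 0.432 from edgeR). All ligand shares overlapped between the groups. The share of *Jag2* in the summed TPM of the Jagged and Delta-like genes was 44.04% ± 1.86 (SD, n = 3) in control samples and 43.0% ± 1.06 in Ptch1-ablated samples. *Jag1* supplied 36.2% ± 2.16 and 37.8% ± 2.11, and *Dll1* 19.6% ± 2.87 and 19.1% ± 2.03. *Lfng* (gene 16848), a glycosyltransferase that alters which ligands a receptor answers to, had 534, 601 and 447 normalised counts in control samples. In Ptch1-ablated samples it had 374, 560.32 and 459. Replicates 2 and 3 lay within the control range and replicate 1 below it (log2 fold change -0.18, 95% interval -0.57 to 0.20, adjusted p = 0.476 from edgeR).

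**Figure D3:**
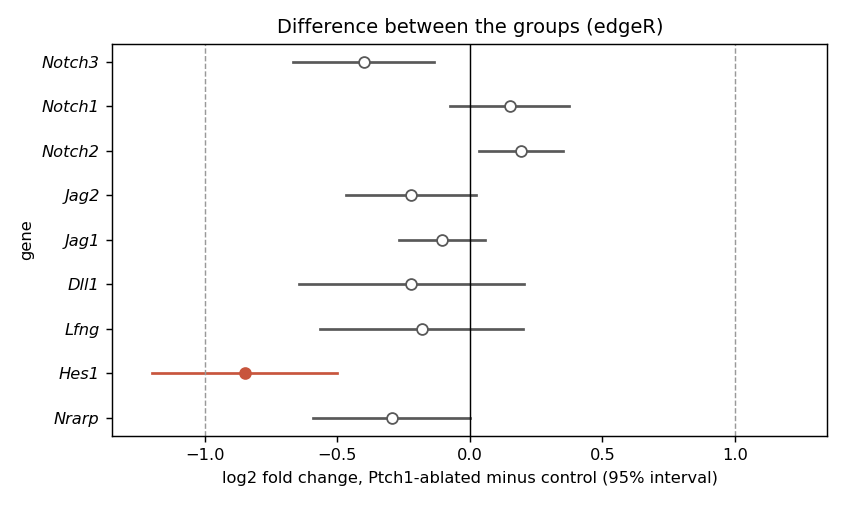
Log2 fold change of the 9 tested Notch genes, Ptch1-ablated minus control, with 95% intervals from edgeR (n = 3 per group). The filled red point is *Hes1* at -0.85, which passed the adjusted p of 0.05. Open points did not pass, and the dashed lines mark the fold change of 2.

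In number, 1 of 9 tested Notch genes (11.1%) passed the adjusted p of 0.05, where 14.0% of all tested genes did, 7.61% higher and, as *Hes1*, 6.41% lower. The study's rule with the fold change of 2 called 0 of the 9 with edgeR, DESeq2, limma-voom and limma on log2 TPM. At an unadjusted p of 0.05, edgeR gave 3 of the 9, namely *Hes1*, *Notch3* and *Notch2*, against 33.5% of all tested genes. The groups did not overlap for 4 of the 9 genes, *Hes1* and the receptors, where 39.9% of tested genes showed no overlap (20.3% lower and 19.7% higher in the Ptch1-ablated samples). The median log2 fold change was -0.22 for the 9 genes and -0.01 for all tested genes, and 7 of the 9 lay below 0 where 51.5% of tested genes did. Without Ptch1-ablated replicate 1, 2 of the genes passed the adjusted p, *Hes1* and *Nrarp*. Without control replicate 2 none did. All deposited expected counts of the 10 genes were whole numbers in every sample. Exons of *Notch1*, *Notch3*, *Dll1* and *Nrarp* overlap antisense genes in the GENCODE annotation and those of *Notch2* a gene on the same strand. None of these overlapping genes was in the expression table. Whether counting used strand is not given in the sources used here, so reads from them cannot be told apart from those of the Notch genes.

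The other genes of the pathway, from a list of 60, were followed by role. Of the 48 that were tested, 4 rose and 2 fell by the adjusted p alone and 42 did not pass, a share of 12.5% beside the 14.0% of all tested genes. Their median log2 fold change was 0.01. The genes that process the receptor included 2 of the 4 that rose. *Furin*, which encodes the protease that cuts the receptor on its way to the surface, had 1596, 1596 and 1556 normalised counts in control samples and 2391, 2282 and 2390.3 in Ptch1-ablated samples. The groups did not overlap (log2 fold change 0.57 with a standard error of 0.06, edgeR adjusted p = 0.00448), and the call was kept under all 17 alternatives. *Ncstn*, a subunit of the gamma-secretase that releases the intracellular domain, rose by less (0.24, adjusted p = 0.0375 from edgeR). The other 8 genes of this role did not pass.

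Of the 4 ubiquitin ligase genes that act on ligands, *Mib2* fell, with 735, 856 and 722 normalised counts in control samples and 429, 482 and 584 in Ptch1-ablated samples (log2 fold change -0.63 with a standard error of 0.13, edgeR adjusted p = 0.0239). *Mib1*, its better known relative, had a log2 fold change of 0.19 and did not pass. *Neurl1a*, with 4 to 26 counts per sample, was at 1.56 with overlapping groups and did not pass either (adjusted p = 0.0793 from edgeR). *Neurl1b* was at -0.20, also without passing. Of 9 genes of the nuclear complex, *Crebbp*, a histone acetyltransferase gene, rose by 0.30 (adjusted p = 0.0383 from edgeR). *Rbpj*, the DNA-binding partner of every receptor, lay at 0.05 with overlapping groups. Among 8 tested genes for receptor turnover, *Fbxw7* rose, from 594, 564 and 540 normalised counts in control samples to 853, 829 and 735 in Ptch1-ablated samples. *Fbxw7* encodes the part of a ubiquitin ligase that marks the intracellular domain for destruction, and it was higher by 0.51 on the log2 scale (standard error 0.08, edgeR adjusted p = 0.0146).

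*Hes6*, which encodes a Hes protein known to oppose Hes1, fell with *Hes1*. It had 276, 287 and 234 normalised counts in control samples and 206, 166 and 183 in Ptch1-ablated samples (log2 fold change -0.52 with a standard error of 0.13, edgeR adjusted p = 0.0383). The groups did not overlap. Apart from that of *Furin*, the calls of these other pathway genes were each lost in at least 1 fit without 1 library. In such fits the log2 fold changes were 0.25 to 0.34 for *Crebbp*, 0.21 to 0.26 for *Ncstn* and -0.61 to -0.45 for *Hes6*. They were -0.76 to -0.53 for *Mib2* and 0.47 to 0.57 for *Fbxw7*. *Crebbp* was lost without any of the 6, *Ncstn* without any except Ptch1-ablated replicate 1 (adjusted p 0.0615 to 0.128 for the former and 0.0698 to 0.116 for the latter). Both were also lost without scaling factors (0.0699 and 0.0812) and with limma on log2 TPM in all 3 versions (0.0845 to 0.125 and 0.107 to 0.126), and *Ncstn* with no filter beyond 1 count (0.0581). *Mib2* was lost without any control replicate or Ptch1-ablated replicate 2 (0.0518 to 0.0990), *Hes6* without control replicate 1 or 2 or Ptch1-ablated replicate 2 or 3 (0.0775 to 0.140), and *Fbxw7* without control replicate 2 (0.0739).

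The remaining roles held no gene that passed. All 12 genes of the nuclear repressors stayed above the adjusted p of 0.05, with 2 at an unadjusted p of 0.05 in edgeR. These were *Tle2*, with 9 to 40 counts per sample (log2 fold change -0.96, adjusted p = 0.107 from edgeR), and *Ctbp2* (0.16, adjusted p = 0.135). The groups did not overlap for either. The highest of the 12 by TPM, *Ctbp1* and *Hdac1*, had log2 fold changes of -0.04 and -0.01. For the 3 tested genes of receptor glycosylation, 0 were at an unadjusted p of 0.05 in edgeR, and *Rfng* and *Poglut1* lay at -0.10 and -0.13. The ligand-related *Dlk2* had a log2 fold change of 0.38 with an adjusted p of 0.483 from edgeR. *Dll3* had between 1 and 10 counts per sample and *Dll4* at most 1.

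A low gene outside the naming rule was singled out after its values were seen. *Hes2*, another Hes repressor, had 7, 13 and 10 counts in control samples and 1, 1 and 1 in Ptch1-ablated samples. It did not pass the filter for testing. The Ptch1-ablated to control ratio of its summed counts was 0.104 (interval 0.0202 to 0.333), and its adjusted p was 0.0212 in edgeR when every gene with a count was tested. In the same way *Dtx1* had a ratio of 0.461 (interval 0.239 to 0.852), *Notch4* of 1.45 (0.713 to 3.03) and *Dll3* of 0.777 (0.336 to 1.75). None of these 3 passed in that fit (adjusted p 0.201, 0.548 and 0.821 from edgeR).

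**Figure D4:**
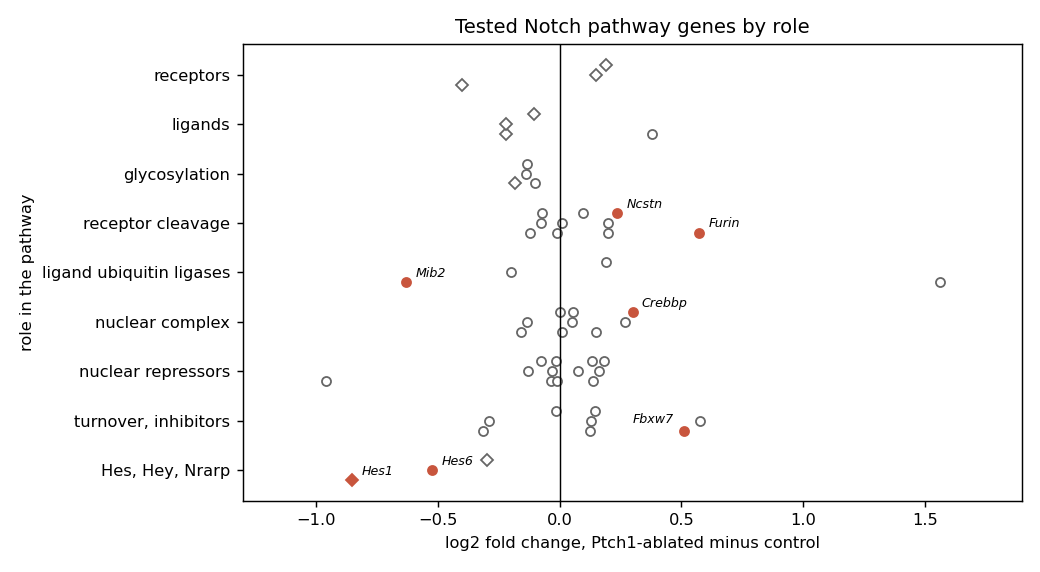
Log2 fold change (Ptch1-ablated minus control) of the tested Notch pathway genes, grouped by role, with diamonds for the 9 genes described individually and circles for the 48 others. Filled red symbols passed the adjusted p of 0.05 in edgeR: *Ncstn*, *Furin*, *Crebbp* and *Fbxw7* lie above 0, and *Hes1*, *Hes6* and *Mib2* below.

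Genes that other work places downstream of Notch in keratinocytes or cornea moved in both directions. Of 8 listed and tested, 3 rose, 2 fell and 3 did not pass the adjusted p of 0.05, a share past of 62.5% beside the 14.0% of all tested genes. The list was chosen with earlier results of these data known, so no conclusion is drawn from that share.

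*Ivl*, which encodes involucrin of the cornified envelope, had 232, 236 and 283 normalised counts in control samples and 681, 383 and 499 in Ptch1-ablated samples (log2 fold change 1.06, edgeR adjusted p = 0.0212). *Myc*, a growth regulator, had a log2 fold change of 0.91 (adjusted p = 0.0153 from edgeR). Both genes were higher in all Ptch1-ablated samples. *Ccnd1*, the gene of cyclin D1, fell by 0.56 on the log2 scale (adjusted p = 0.0267 from edgeR) and *Krt1*, an epidermal keratin gene at a low level here, fell by 0.64 (adjusted p = 0.0401 from edgeR). *Cdkn1a* (0.31) and *Krt10* (0.25) did not pass. The call of *Myc* was lost without control replicate 2 (edgeR adjusted p = 0.0803). That of *Ivl* was lost without control replicate 1 or 2 (adjusted p 0.0660 to 0.0970), and that of *Ccnd1* without either of these or Ptch1-ablated replicate 3 (0.0586 to 0.105). *Krt1* kept its call only without Ptch1-ablated replicate 3 (0.0815 to 0.142 in the other fits).

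**Figure D5:**
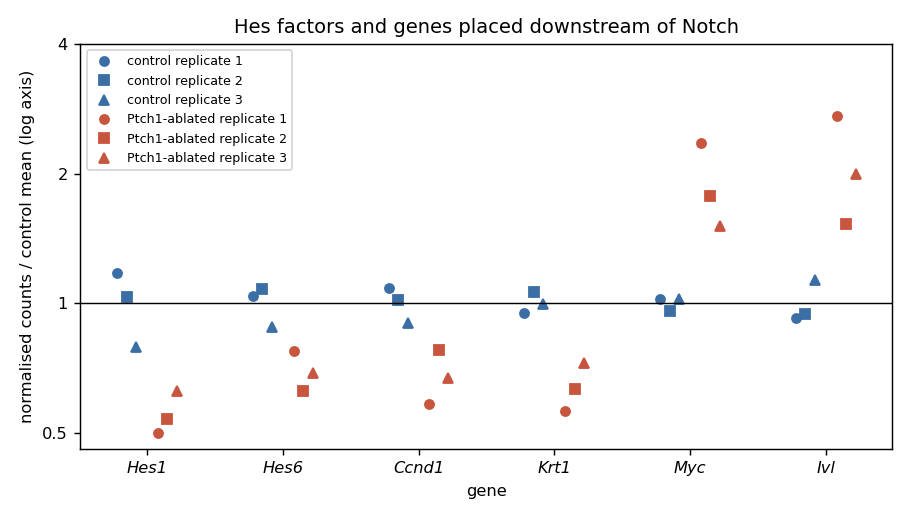
Normalised counts divided by the control mean (log axis), with a point per sample, for the Hes genes and for genes placed downstream of Notch that passed the adjusted p of 0.05. *Hes1*, *Hes6*, *Ccnd1* and *Krt1* lie below 1 in all Ptch1-ablated samples, and *Myc* and *Ivl* lie above the control samples.

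Marker genes of other cells and of stress were read in the same samples, since epithelial sheets can carry other cells and fewer cells of a type cannot be told apart from less RNA per cell. *Notch3* is also a gene of pericytes. The 5 pericyte and smooth muscle markers summed to 2.16 to 3.19 TPM in control samples and 4.09 to 6.35 TPM in Ptch1-ablated samples, against 87.8 to 158 TPM of *Notch3*, and *Rgs5* and *Pdgfrb* had at most 0.41 TPM. *Cspg4* was the 1 of 2 tested pericyte markers that rose (log2 fold change 1.54, edgeR adjusted p = 0.0112). The 5 vascular endothelial markers in the table summed to at most 2.52 TPM in any sample, with *Cdh5* at 0.03 TPM or less. The 7 stromal markers summed to 39.2 TPM in control replicate 3 and to between 6.42 and 10.4 TPM in the other samples. For the 3 conjunctival keratins the sum was 1384 to 2309 TPM in control samples and 2174 to 4667 TPM in Ptch1-ablated samples, highest in replicate 1. The sums for the 8 immune markers were 114 to 152 and 149 to 194 TPM, with *Ptprc*, the pan-leukocyte gene, at 0.20 TPM or less. *Itgam* and *Cd68* made up nearly all of these sums, with means of 84.5 and 47.1 TPM in control samples. Both had higher means in the Ptch1-ablated samples. The groups did not overlap in normalised counts, as for 39.9% of tested genes, but overlapped in TPM. The log2 fold changes of *Itgam* and *Cd68* were 0.48 and 0.27 (adjusted p = 0.0759 and 0.213 from edgeR). The sums for the 3 corneal endothelial markers were 24.0 to 27.7 and 25.9 to 29.9 TPM. Nearly all of this was *Slc4a11* (23.75 to 29.69 TPM over all samples), with *Col8a1* at most 0.52 TPM and *Col8a2* at most 0.10 TPM. The sums for the 5 Schwann cell and melanocyte markers were 5.13 to 6.43 and 3.74 to 5.08 TPM. *Krt14*, a basal and progenitor keratin among the epithelial markers, was higher in the Ptch1-ablated samples (log2 fold change 2.81, edgeR adjusted p = 0.00769), while *Krt12*, the keratin of differentiated cornea, was at -0.10 with overlapping groups. Of the 10 epithelial markers, *Clu* also passed (1.00, adjusted p = 0.00376 from edgeR) and the other 8 did not. Among these, *Krt15* was at 0.99, *Krt5* at 0.04 and *Trp63* at -0.03, each with overlapping groups. The 16 immediate early genes summed to 2453 to 2837 TPM in control samples and 4484 to 5339 TPM in Ptch1-ablated samples, and 14 of the 16 (87.5%) rose where 7.61% of all tested genes did. These genes too were listed with earlier results of these data known. No marker of stroma, vascular or corneal endothelium, immune cells, conjunctiva, Schwann cells or melanocytes that was tested passed the adjusted p. The part of these markers in the values of *Hes1* and the other Notch genes was not tested.

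The sequence before the start site was examined in a table of promoters drawn from RefSeq's GRCm38.p6 annotation, a later build than the mm9 named in the submitters' processing notes. Of the 10 Notch genes, 8 matched an entry in that table, with 9 promoters in all, and the promoters of *Hes1* and *Hey1* were not analysed here. The 250 bases before each start were searched on both strands for TGGGAA, the core bound by RBPJ, for its longer form GTGGGAA, which contains TGGGAA, and for CACNAG, a box bound by Hes proteins. The core was found in 1 of the 9 promoters, that of *Lfng*, and in 21.6% of the 32851 promoters in the table. GTGGGAA stood in 5.42% of all promoters and CACNAG in 36.7%, and the latter was present in 5 of the 9. The promoters of *Notch3*, the most abundant receptor, of *Nrarp*, a target gene, and of *Lfng*, the gene with the core, are printed 5′ to 3′ along the gene's strand, with every match in either orientation in capitals.
Notch3 (chr17:32166891-32167140, minus strand): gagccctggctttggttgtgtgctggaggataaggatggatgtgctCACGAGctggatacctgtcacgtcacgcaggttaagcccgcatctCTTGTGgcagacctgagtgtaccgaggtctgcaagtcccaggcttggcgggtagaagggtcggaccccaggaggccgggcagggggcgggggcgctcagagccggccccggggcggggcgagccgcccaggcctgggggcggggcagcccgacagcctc
Nrarp (chr2:25180508-25180757, plus strand): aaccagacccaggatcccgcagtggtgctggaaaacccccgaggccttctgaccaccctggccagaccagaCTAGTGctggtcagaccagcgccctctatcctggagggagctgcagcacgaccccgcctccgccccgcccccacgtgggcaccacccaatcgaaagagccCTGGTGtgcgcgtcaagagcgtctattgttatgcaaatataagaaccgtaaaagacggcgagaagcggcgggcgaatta
Lfng (chr5:140607091-140607340, plus strand): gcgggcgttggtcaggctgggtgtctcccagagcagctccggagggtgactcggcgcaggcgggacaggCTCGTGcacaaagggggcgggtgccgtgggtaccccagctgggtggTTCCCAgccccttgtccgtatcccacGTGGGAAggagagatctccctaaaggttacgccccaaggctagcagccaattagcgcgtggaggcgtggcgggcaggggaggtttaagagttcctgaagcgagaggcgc
In *Lfng* the core occurred in both orientations, at 135 to 130 and at 108 to 103 bases before the start, and the second of these was part of GTGGGAA. *Notch3* held CACNAG at 204 to 199 and 159 to 154 bases before the start, and *Nrarp* at 179 to 174 and 79 to 74. These matches are descriptions of letters and do not show binding.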

How the data were processed

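RNA-seq of corneal epithelial cells was available for 3 control (WT) and 3 Ptch1-ablated (KO) samples, grouped by their titles. The authors aligned clean reads with Bowtie2 2.2.5 and quantified genes with RSEM 1.2.12, and the submitters' processing notes name mm9. The methods describe rRNA depletion and DNA nanoball sequencing, whereas an Illumina kit is named in the labels. The authors deposited expected counts (RSEM estimates, not scaled for depth), TPM (scaled for length and sample total) and FPKM values, with group means. FPKM values and group means were not used, and the number of other sample columns was 0.

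Expected counts, of which 39.4% of values above 0 were not whole, were rounded. Genes passing filterByExpr were tested with edgeR 4.0.16 in R 4.3.3 (quasi-likelihood test, TMM factors 0.960 to 1.03, Benjamini-Hochberg adjustment over 12999 genes). Normalised counts are TMM-scaled counts at the mean library size. Standard errors were derived from the fold change and its F statistic, and 95% intervals use them with the test's degrees of freedom. Samples of a group differed by more than sampling noise (chi-square per degree of freedom 10.1 to 37.8). That cannot show whether they came from different animals. Each was counted as a replicate because the methods call them biological replicates.

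The members and lists were chosen with earlier results of these data known. The named genes were all members, listed pathway and downstream genes at an adjusted p of at most 0.05, and, in a class without any, the 2 with the highest mean TPM. *Hes2*, *Mib1*, *Neurl1a*, *Neurl1b*, *Rbpj*, *Tle2*, *Ctbp2*, downstream genes that did not pass and single markers were named outside this rule, with their values seen. Some listed genes are counted in their list and not reported here by name. The lists covered the Notch pathway, genes placed downstream of it, and markers of corneal epithelium, stroma, vascular endothelium, pericytes, corneal endothelium, immune cells, conjunctiva, Schwann cells and melanocytes, and immediate early genes. *Lum*, *Kdr*, *Emcn* and *Muc5ac* of these lists were not analysed here. Results were recomputed with DESeq2 1.42.0, limma-voom and limma 3.58.1 on log2 TPM (pseudocounts 1 and 0.1), filtered at a mean TPM of 1 or not at all, RLE, upper-quartile or no scaling factors, no filter beyond 1 count, at least 10 counts in every sample, a replicate block, and each sample left out in turn.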

Additional observations from a re-analysis of the deposited data

How the results depend on the processing

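Over the 20 named genes with a fit and 17 alternatives, 288 of 340 values kept their side of the adjusted p of 0.05, 48 lost it and 4 gained it, and 0 changed direction. The count of Notch genes with a fold change of 2 was 0 under every alternative. The count at the adjusted p alone was 1 and became 2, both lower, with DESeq2 and with the replicate block. Leaving out 1 sample gave 0 to 2, all lower. *Mib2*, *Ccnd1*, *Krt1* and *Ivl* were lost with limma on log2(TPM + 1) and no TPM filter (adjusted p 0.0524 to 0.0804). For the other pathway and downstream genes together the count was 11 (7 up, 4 down), and 6 (4 up, 2 down) with limma on log2(TPM + 1) and no TPM filter. Leaving out 1 sample gave 1 to 9 (1 to 6 up, 0 to 3 down).

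Over all genes, 420 were called with the fold change of 2 (304 up, 116 down). With limma on log2(TPM + 1) the number was 234 (165 up, 69 down), and 168 (122 up, 46 down) with no TPM filter. Leaving out 1 sample gave 59 to 430 (45 to 298 up, 14 to 132 down), with the lowest numbers without control replicate 2. By the adjusted p alone, 1822 genes passed, and limma without a TPM filter gave 798 (463 up, 335 down). Leaving out 1 sample gave 93 to 1325 (68 to 753 up, 25 to 572 down). The cause was not tested.

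Same-numbered samples did not deviate together (correlations of 0.105, -0.0137 and 0.0189), and not every sample correlated best with its own number, so the numbers were not taken to pair the samples. With the replicate block, 1892 genes passed the adjusted p. *Notch3* passed (adjusted p = 0.0494 from edgeR), and *Crebbp* (0.0542) and *Krt1* (0.0508) did not. *Hey1* had at most 5 counts per sample, so its ratio has a wide interval.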
